A study of Mus musculus with 10 samples.

Results

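Marker genes of the pyramidal cells of hippocampal areas CA2 and CA3 were examined in RNA from hippocampal synaptoneurosomes, a fraction enriched in detached synaptic endings that have closed again. The panels hold 9 genes given by symbol and found by their Ensembl identifiers: Rgs14, Pcp4, Amigo2, Necab2 and Map3k15 for CA2, and Bok, Iyd, Cpne4 and Nectin3 for CA3. All 9 were among the 22255 genes of the table, and all 9 passed the filter on low counts that 14358 genes passed. The animals were wild-type C57Bl/6J mice. One group of 5 libraries came from mice given vehicle and the other group of 5 from mice given AM6545, a cannabinoid CB1 receptor antagonist that enters the brain poorly, over a sub-chronic course. The sources used here give no dose, age or sex, and do not say whether a library held tissue of 1 animal or of a pool. The p-values therefore measure the spread between these libraries, which may be partly technical.

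The pyramidal layer of the hippocampus is divided into fields that differ in connections and plasticity. CA3 cells receive the mossy fibres of dentate granule cells and excite each other and CA1. CA2 is a small field between CA3 and CA1, known for its part in social memory and for synapses that resist long-term potentiation. Rgs14, a regulator of G protein signalling that restrains plasticity in CA2, and Pcp4, a small calmodulin-binding protein, are the most used CA2 markers. The genes of both panels are markers by relative abundance and are transcribed in other cells as well, Pcp4 and Necab2 outside the hippocampus among them. In a bulk preparation such as this, a smaller share of one cell type and less RNA per cell cannot be told apart.

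Library totals ran from 18106112 to 25899794 estimated counts. The preparation held the genes of excitatory neurons in every library, Slc17a7 at 632 to 977 CPM (reads scaled to a common library size after TMM normalization) and Camk2a at 246 to 390 CPM. It also held genes of other cells, and 5 myelin genes of oligodendrocytes summed to 11663 to 27446 CPM. One vehicle library, replicate 4, stood apart in its choroid plexus genes, with a summed level of 60.8 CPM against 649 to 5035 CPM in the other 9. The markers of both fields were present in every library, from 20 counts of Map3k15 at the lowest to 4783 counts of Rgs14 at the highest.

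Levels of different members were compared per kilobase of transcript, since a longer transcript yields more reads. Lengths came from GENCODE M21, which may not be the release used for counting. On that scale Pcp4 was the most abundant, at 158 ± 35.8 CPM per kilobase (SD, n = 10 libraries), and its range of 101 to 215 lay above that of every other member. Bok followed at 74.8 ± 10.2 and Rgs14 at 65.3 ± 10.5 CPM per kilobase, and the ranges of these neighbours overlapped. Necab2 was at 44.7 ± 5.91, Cpne4 at 36.3 ± 6.58, Nectin3 at 25.2 ± 3.84 and Amigo2 at 18.5 ± 2.77 CPM per kilobase, each overlapping its neighbour in this order. Iyd, at 4.26 ± 0.980, and Map3k15, at 0.300 ± 0.0766 CPM per kilobase, lay below all other members without overlap. The 2 panels were thus interleaved, with CA2 markers at both ends of the order.

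Among the CA2 markers, Rgs14 (ENSMUSG00000052087.15) had 165, 152, 133, 196 and 144 CPM in vehicle replicates 1 to 5 and 185, 161, 109, 143 and 148 CPM in AM6545 replicates 1 to 5. The lowest library was AM6545 replicate 3 and the highest was vehicle replicate 4, with the other 8 mixed between them. The group means were 158 ± 24.3 CPM under vehicle and 149 ± 27.6 CPM under AM6545 (SD, n = 5 each), and the fitted log2 fold change was -0.08 ± 0.13 (SE; edgeR unadjusted p = 0.550, adjusted p = 0.9998).

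Pcp4 (ENSMUSG00000090223.3) had 118, 81.0, 96.1, 87.2 and 97.9 CPM in vehicle replicates 1 to 5 and 64.6, 122, 121, 83.6 and 138 CPM in AM6545 replicates 1 to 5. Of the 5 AM6545 libraries, 3 lay above all vehicle libraries and 1 lay below all of them, so the AM6545 group was the wider one. Its means were 96.1 ± 14.1 and 106 ± 30.4 CPM (SD, n = 5 each), and the fitted log2 fold change was 0.14 ± 0.17 (SE; edgeR unadjusted p = 0.439, adjusted p = 0.9998). By GENCODE M21, an exon of Igsf5, an immunoglobulin superfamily gene, overlaps Pcp4 on the same strand, and 19.9% of the 31-base words of Pcp4 transcripts also occur in transcripts of other genes, so its count is less certain than that of the other members.

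Necab2 (ENSMUSG00000031837.15), a neuronal calcium-binding protein, had 98.0, 68.7, 92.4, 87.1 and 84.3 CPM in vehicle and 96.2, 80.4, 74.2, 93.3 and 107 CPM in AM6545 replicates 1 to 5. Vehicle replicate 2 was the lowest library and AM6545 replicate 5 the highest. The log2 fold change was 0.07 ± 0.12 (SE; edgeR unadjusted p = 0.568, adjusted p = 0.9998).

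Amigo2 (ENSMUSG00000048218.7), a leucine-rich repeat adhesion protein, had 43.4, 53.0, 65.2, 57.3 and 44.8 CPM in vehicle and 55.7, 42.4, 62.9, 51.0 and 49.8 CPM in AM6545 replicates 1 to 5. The replicates numbered 3 were the highest in both groups. The log2 fold change was -0.01 ± 0.13 (SE; edgeR unadjusted p = 0.940, adjusted p = 0.9998). Map3k15 (ENSMUSG00000031303.9), a MAP kinase kinase kinase, was the scarcest member, with 1.12, 1.66, 1.35, 0.819 and 1.57 CPM in vehicle and 1.13, 1.19, 1.27, 0.999 and 1.93 CPM in AM6545 replicates 1 to 5, on 20 to 39 counts per library. AM6545 replicate 5 lay above the other 9 libraries. Its log2 fold change was -0.0037 with a 95% confidence interval of -0.56 to 0.56 (edgeR unadjusted p = 0.989), the widest interval of the 9. An exon of Pdha1 overlaps Map3k15 on the opposite strand, as an exon of Pced1b overlaps Amigo2, and use of the strand in counting is not given in the sources used here.

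Among the CA3 markers, Bok (ENSMUSG00000026278.15), a member of the BCL-2 family of cell death regulators, had 125, 79.8, 118, 110 and 96.7 CPM in vehicle and 107, 92.4, 105, 105 and 115 CPM in AM6545 replicates 1 to 5. All 5 AM6545 values lay inside the vehicle range. The means were 106 ± 18.1 and 105 ± 8.09 CPM (SD, n = 5 each), and the fitted log2 fold change was -0.02 ± 0.12 (SE; edgeR unadjusted p = 0.881, adjusted p = 0.9998).

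Cpne4 (ENSMUSG00000032564.17), a copine that binds phospholipids when calcium is present, had 102, 71.5, 102, 109 and 85.6 CPM in vehicle and 88.2, 98.8, 64.1, 81.9 and 89.5 CPM in AM6545 replicates 1 to 5. Its log2 fold change of -0.15 was the largest in size among the members, with an SE of 0.13 and a 95% confidence interval of -0.43 to 0.12 (edgeR unadjusted p = 0.261, adjusted p = 0.9998). The groups overlapped, and AM6545 replicate 3 alone lay below all vehicle libraries.

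Nectin3 (ENSMUSG00000022656.16), an adhesion molecule of the junctions beside mossy fibre synapses, had 53.9, 55.1, 93.2, 76.6 and 66.5 CPM in vehicle and 76.8, 66.2, 68.2, 67.8 and 61.9 CPM in AM6545 replicates 1 to 5. As for Bok, the AM6545 libraries lay inside the vehicle range, and the log2 fold change was -0.02 ± 0.13 (SE; edgeR unadjusted p = 0.892, adjusted p = 0.9998). Iyd (ENSMUSG00000019762.5), which encodes the deiodinase that recovers iodide from iodotyrosines, had 5.92, 4.17, 8.19, 6.47 and 4.80 CPM in vehicle and 6.45, 5.79, 7.99, 4.74 and 5.29 CPM in AM6545 replicates 1 to 5. The replicates numbered 3 were again the highest in both groups. Its log2 fold change was 0.03 ± 0.19 (SE; edgeR unadjusted p = 0.861, adjusted p = 0.9998).

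**Figure D1:**
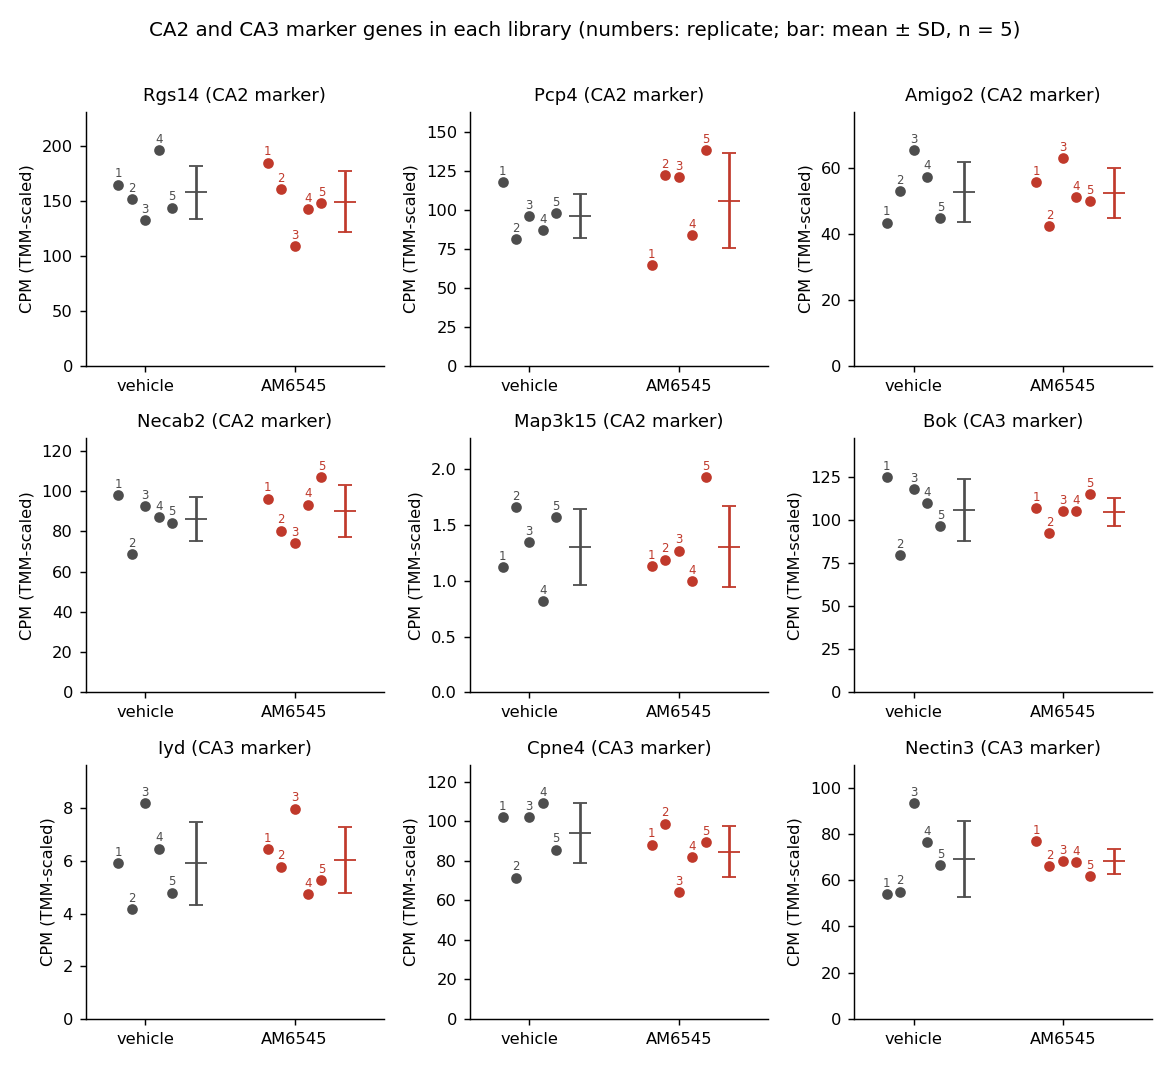
TMM-scaled CPM of each of the 9 marker genes (vertical axes, starting at 0) in the 5 vehicle and 5 AM6545 libraries; points are libraries with their replicate number, and bars give the mean ± SD (n = 5). The groups overlap in every panel, and Pcp4 spreads from 64.6 to 138 CPM within the AM6545 group.

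With AM6545 against vehicle, 0 of the 9 members had an adjusted p under 0.05 in edgeR's quasi-likelihood test, where 0% of the 14358 tested genes did; DESeq2's Wald test gave 0 genes as well. At an unadjusted p under 0.05 the count was also 0 of 9, against 1.88% of all tested genes (270). That count over all genes was 578 without vehicle replicate 2, 504 without AM6545 replicate 3, 414 without vehicle replicate 4 and 165 without AM6545 replicate 4, with 0 of the 9 members past the adjusted threshold in each. The groups overlapped for all 9 members, and 0.293% of all tested genes had groups without overlap. The median log2 fold change was -0.0037 over the CA2 and -0.02 over the CA3 markers, beside -0.01 over all tested genes. The 95% confidence intervals reached 0.51 for Pcp4 and -0.43 for Cpne4 and were widest for Map3k15, so changes up to those bounds on the log2 scale are not excluded for these genes. The sign of 8 of the 9 fold changes, all but that of Cpne4, turned in at least 1 alternative setting or when 1 library was left out.

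**Figure D2:**
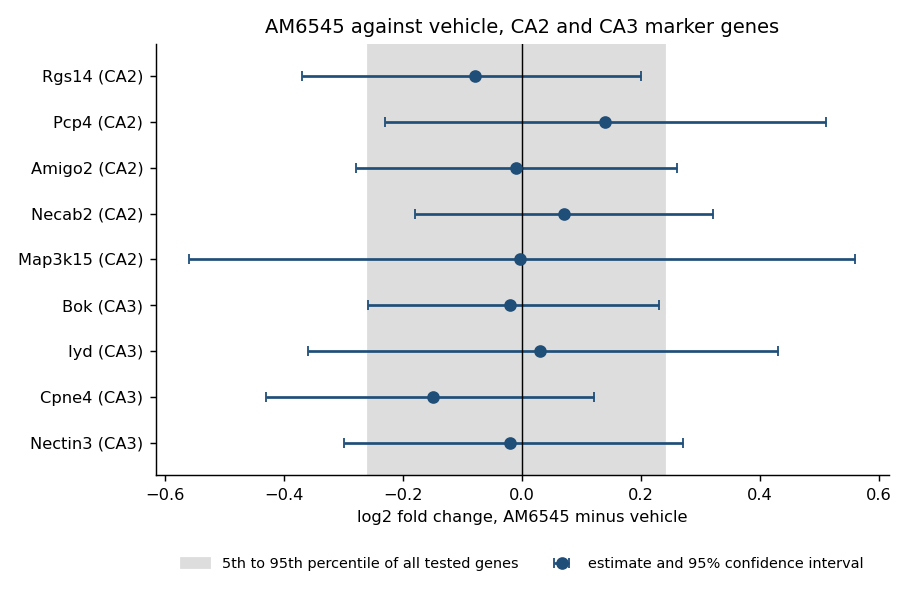
Log2 fold change of AM6545 minus vehicle (horizontal axis) for the 9 marker genes, as points with 95% confidence intervals; the grey band holds the 5th to the 95th percentile of all 14358 tested genes, -0.26 to 0.24. Every interval includes 0 and every estimate lies inside the band, with the widest interval for Map3k15.

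Other genes enriched in the same fields were set beside the members. Of 12 further CA2 genes, 11 were tested and 0 had an adjusted or an unadjusted p under 0.05. Their 3 genes of smallest p were Cacng5, a TARP-family auxiliary subunit, with a log2 fold change of 0.30 (standard error 0.19, edgeR unadjusted p = 0.126), the growth factor Fgf2 at -0.31 (standard error 0.22, edgeR unadjusted p = 0.186) and the matrix proteoglycan Vcan at -0.22 (standard error 0.16, edgeR unadjusted p = 0.192). Avpr1b, the vasopressin receptor gene by which CA2 is often recognised, had 5 to 17 counts per library and did not pass the filter.

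Of 10 further CA3 genes, all were tested and 0 had an unadjusted p under 0.05. The smallest p belonged to the heparan sulfate sulfotransferase gene Hs3st4, at -0.15 (standard error 0.091, edgeR unadjusted p = 0.111). It was followed by Ttn at -0.28 on 13 to 26 counts (edgeR unadjusted p = 0.262) and by Coch at 0.11 (edgeR unadjusted p = 0.535). Grik4, the kainate receptor subunit gene long used to mark CA3, had 33.7 ± 7.51 CPM under vehicle and 33.5 ± 4.12 CPM under AM6545 (SD, n = 5 each; edgeR log2 fold change -0.01, unadjusted p = 0.96, adjusted p = 0.9998) and was named after its values were seen.

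In the neighbouring fields no gene passed this test. Among 8 CA1 genes the median log2 fold change was -0.04 and 0 had an unadjusted p under 0.05. Ndst4 was at -0.14 and Spink8 at -0.15. Among 8 dentate granule cell genes the median was -0.07, again with 0 at that level. Prox1, the granule cell identity factor, was at -0.20 (edgeR unadjusted p = 0.111), Trpc6 at -0.15 and C1ql2 at -0.16.

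Transcript estimates showed which products carried the reads. Of 36 annotated transcripts of the 9 genes, 33 had a count and 22 were tested. Rgs14-201 held 99.5% of the Rgs14 counts, Necab2-201 held 99.9%, Pcp4-201 held 96.7%, Bok-201 held 95.2% and Map3k15 had 1 transcript. The other 4 genes were split between a main and a second product. Cpne4-201 held 82.3% and Cpne4-205 held 12.5%, Nectin3-201 held 78.2% and Nectin3-203 held 11.6%, and Iyd-201 held 89.4% beside 10.6% for the retained-intron transcript Iyd-202.

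Of the 22 tested transcripts, 0 had an adjusted p below 0.05 by edgeR, and the DESeq2 Wald test gave 0 as well, where 0.00314% of the 31848 tested transcripts had one with edgeR. At an unadjusted p under 0.05 the count was 0, beside 1.97% of all tested transcripts. The smallest unadjusted p was 0.0641, for Amigo2-202, 1 of 2 protein-coding transcripts of Amigo2. It had 7.67, 10.2, 12.2, 5.41 and 7.57 CPM in vehicle and 12.4, 12.7, 19.5, 14.6 and 6.58 CPM in AM6545 replicates 1 to 5. Of the 5 AM6545 libraries, 4 lay above every vehicle library and the remaining one, replicate 5, lay inside the vehicle range. The log2 fold change was 0.61 ± 0.29 (SE; edgeR adjusted p = 0.9999). The main product, Amigo2-201, had 44.1 ± 8.07 CPM under vehicle and 39.2 ± 6.10 CPM under AM6545 (SD, n = 5 each; edgeR log2 fold change -0.17 ± 0.15, SE; unadjusted p = 0.286, adjusted p = 0.9999).

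**Figure D3:**
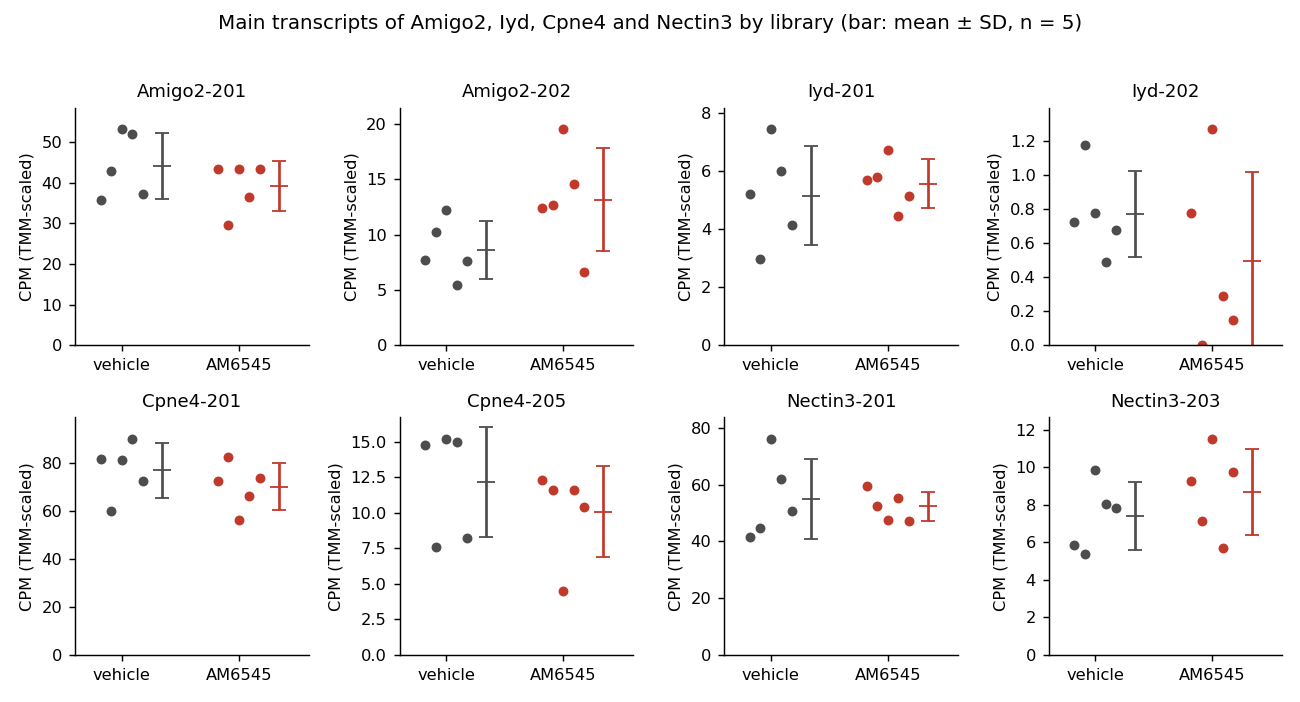
TMM-scaled CPM of the main transcripts of Amigo2, Iyd, Cpne4 and Nectin3 (vertical axes, starting at 0), with 1 point per library and bars for the mean ± SD (n = 5). Amigo2-202 has means of 8.60 CPM under vehicle and 13.1 CPM under AM6545, with 4 of its 5 AM6545 points above all vehicle points; the SD bar of Iyd-202 under AM6545 is clipped at 0.

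The spread between libraries was set beside that of all genes. The SD of log2 CPM over the 10 libraries had a median of 0.24 over the 9 members and 0.21 over all tested genes. It was 0.34 for Pcp4 and for Map3k15 and 0.31 for Iyd, and lowest, at 0.19, for Necab2 and Bok. From the lowest to the highest library Map3k15 spanned 2.35-fold, Pcp4 2.13-fold and Amigo2, at the other end, 1.54-fold.

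Covariation over libraries differed between the panels in value. Among the 36 pairs the median Pearson r of log2 CPM over the 10 libraries was 0.12, and 21 pairs were positive. The 10 pairs within the CA2 panel had a median r of -0.13 and a highest r of 0.36, and only 3 were positive. All 6 pairs within the CA3 panel were positive, with a median r of 0.41. Each was also computed without the 2 libraries farthest from the median of its first gene. Cpne4 then had r = -0.294 with Iyd, 0.171 with Bok and 0.19 with Nectin3. Iyd with Nectin3 had 0.268, Bok with Iyd 0.432 and Bok with Nectin3 0.513. The 20 pairs across the panels had a median of 0.08 over the 10 libraries. All pairs of tested genes had a median r of -0.0033. These medians describe pairs that share genes and libraries, and the difference between the panels was not tested. An r of at least 0.6 was found in 5 of the 36 pairs and in 7.97% of all gene pairs. Of these 5 pairs, 4 joined a CA2 with a CA3 marker and 1 lay within CA3. After Benjamini-Hochberg adjustment over the 36 pairs, 0 had a permutation p under 0.05 with either coefficient, and 4 pairs by Pearson and 3 by Spearman did before adjustment.

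**Figure D4:**
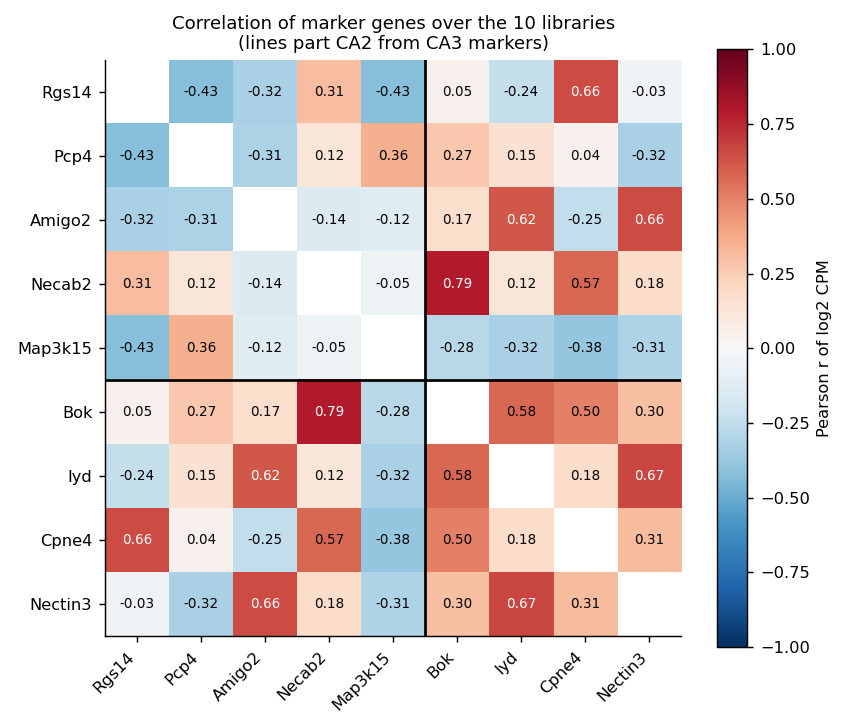
Pearson r of log2 CPM over the 10 libraries for each pair of the 9 marker genes (colour scale from -1 to 1, values printed in the cells; the lines part the CA2 from the CA3 markers). The CA2 block holds values from -0.43 to 0.36, the CA3 block from 0.18 to 0.67, and the highest value, 0.79, joins Necab2 with Bok.

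Necab2 and Bok were the most alike pair. Both were lowest in vehicle replicate 2, at 68.7 and 79.8 CPM. Their correlation was r = 0.792 (permutation p = 0.00641, adjusted over 36 pairs 0.231) and Spearman rho = 0.745 (permutation p = 0.0178, adjusted 0.320). It was 0.738 (exact permutation p = 0.0367) without vehicle replicate 2 and AM6545 replicate 3, the libraries farthest from the median of Necab2. The main transcripts of both are rich in G and C, 63.6% for Necab2 and 61.0% for Bok, against 41.7% to 58.4% between the 10th and 90th percentiles of tested genes. The contrast between genes of low and high GC content differed between libraries, from -0.25 in vehicle replicate 1 to 0.18 log2 units in AM6545 replicate 2. It was negative against Bok, at r = -0.665 (permutation p = 0.0336, 0.342 after adjustment for 144 relations) and Spearman rho = -0.636 (permutation p = 0.0535, 0.535 adjusted), and at r = -0.564 without the 2 farthest libraries. With Necab2 it had r = -0.438 (permutation p = 0.206). Other measures moved with Bok as well. The contrast of short with long transcripts had r = 0.708 with Bok (permutation p = 0.0295, adjusted 0.342) and Spearman rho = 0.794 (permutation p = 0.00922, adjusted 0.391), r = 0.358 without vehicle replicates 1 and 2, and r = 0.477 with Necab2. The mean of 7 genes of thalamus and habenula, regions next to the hippocampus, had r = -0.685 with Bok (permutation p = 0.0272, adjusted 0.342) and Spearman rho = -0.709 (permutation p = 0.0271, adjusted 0.391). With Necab2 that mean had r = -0.643 (permutation p = 0.046, adjusted 0.368) and Spearman rho = -0.636 (permutation p = 0.0548, adjusted 0.535). Without vehicle replicates 2 and 4 the r was -0.609 for Bok and -0.693 for Necab2. The relation was not particular to this pair. Nectin3 had r = -0.649 with the same mean (permutation p = 0.0404, adjusted 0.342) and Cpne4 had -0.545 (permutation p = 0.107, adjusted 0.511). The r was -0.47 for Amigo2, -0.399 for Iyd, -0.312 for Rgs14, 0.239 for Pcp4 and 0.414 for Map3k15. These 7 genes summed to 39.9 to 52 CPM under vehicle and 39.4 to 54.8 CPM under AM6545. The part of these measures in the similarity of Necab2 and Bok was not tested.

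Amigo2, Nectin3 and Iyd were each correlated with the other two at r of at least 0.6. All 3 were highest in vehicle replicate 3. Amigo2 and Nectin3 had r = 0.656 (permutation p = 0.0368, adjusted over 36 pairs 0.359) and Spearman rho = 0.758 (permutation p = 0.0153, adjusted 0.320). Without vehicle replicate 3 and AM6545 replicate 2 their r was 0.566 (exact permutation p = 0.145). Iyd and Nectin3 had r = 0.666 (permutation p = 0.0349, adjusted 0.359; Spearman rho = 0.661, permutation p = 0.0424, adjusted 0.442), which dropped to 0.268 without vehicle replicates 2 and 3, so that relation rests on those libraries. Amigo2 and Iyd had r = 0.621 (permutation p = 0.0570, adjusted 0.410) and Spearman rho = 0.6 (permutation p = 0.0736, adjusted 0.442). Their r was 0.573 without the 2 farthest libraries. With vehicle replicate 3 alone left out, all 3 pairs dropped alike. The r was then 0.47 for Amigo2 with Nectin3, 0.47 for Amigo2 with Iyd and 0.48 for Iyd with Nectin3.

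Rgs14 was closest to Cpne4 among the members, with r = 0.656 (permutation p = 0.0399, adjusted 0.359; Spearman rho = 0.503, permutation p = 0.143, adjusted 0.738). Without vehicle replicate 4 and AM6545 replicate 3 the r was 0.0375, so the relation rests on those libraries. They are the highest and the lowest library for both genes. Pcp4 and Rgs14 had r = -0.43 (permutation p = 0.218, 0.714 adjusted; Spearman rho = -0.261, permutation p = 0.469).

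The sequences just upstream of the RefSeq start sites are given for Necab2 and Bok and for Amigo2, Nectin3 and Iyd, since the highest correlations, apart from that of Rgs14 with Cpne4, were among them. Each is the 250 bases before the start site from the RefSeq annotation of GRCm38.p6, read 5′ to 3′ on the strand of the gene. RefSeq windows were at hand for 7 of the 9 members. The windows lie at chr8:119446469-119446718 (plus strand) for Necab2, chr1:93685325-93685574 (plus) for Bok, chr15:97247288-97247537 (minus) for Amigo2, chr16:46496968-46497217 (minus) for Nectin3 and chr10:3540024-3540273 (plus) for Iyd. Capitals mark GC boxes (GGGCGG on either strand) and the TATA box (TATAAA on either strand).
Necab2: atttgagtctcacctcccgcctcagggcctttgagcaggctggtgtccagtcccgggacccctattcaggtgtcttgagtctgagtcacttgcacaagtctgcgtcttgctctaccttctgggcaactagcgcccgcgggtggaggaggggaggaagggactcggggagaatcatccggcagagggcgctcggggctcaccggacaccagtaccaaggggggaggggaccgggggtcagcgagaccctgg
Bok: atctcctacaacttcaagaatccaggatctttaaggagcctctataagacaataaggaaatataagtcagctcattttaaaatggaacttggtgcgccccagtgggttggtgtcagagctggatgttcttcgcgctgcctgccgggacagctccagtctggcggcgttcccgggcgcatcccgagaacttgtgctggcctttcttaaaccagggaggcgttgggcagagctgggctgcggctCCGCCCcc
Amigo2: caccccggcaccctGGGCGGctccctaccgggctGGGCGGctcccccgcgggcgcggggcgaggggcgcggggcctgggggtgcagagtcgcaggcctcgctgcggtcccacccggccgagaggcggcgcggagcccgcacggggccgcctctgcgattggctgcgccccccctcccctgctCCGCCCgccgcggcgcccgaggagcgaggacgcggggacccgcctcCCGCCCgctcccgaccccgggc
Nectin3: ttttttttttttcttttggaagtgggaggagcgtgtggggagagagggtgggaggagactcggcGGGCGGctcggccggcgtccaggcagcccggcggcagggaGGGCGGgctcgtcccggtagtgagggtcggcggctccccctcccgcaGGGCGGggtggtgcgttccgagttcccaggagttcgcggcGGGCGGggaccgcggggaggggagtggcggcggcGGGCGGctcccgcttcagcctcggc
Iyd: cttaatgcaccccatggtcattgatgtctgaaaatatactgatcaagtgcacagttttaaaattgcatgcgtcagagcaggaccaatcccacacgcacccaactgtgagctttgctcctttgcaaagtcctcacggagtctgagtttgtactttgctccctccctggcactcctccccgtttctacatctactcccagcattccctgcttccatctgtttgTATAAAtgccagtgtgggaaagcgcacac

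The windows of Amigo2 and Nectin3 were alike in composition. Amigo2 had 84.0% G and C, 38 CpG dinucleotides and 4 GC boxes, and Nectin3 had 73.2%, 30 and 5. Of 32851 RefSeq windows of the same length, 32.7% held a GC box and 8.47% held at least 3. Levels of Iyd correlated with those of Amigo2 at r = 0.621 and of Nectin3 at r = 0.666, neither past adjustment. The latter r dropped to 0.268 without vehicle replicates 2 and 3. The Iyd window had 48.4% G and C, 5 CpG dinucleotides and no GC box. It held a TATA box that began 29 bases before the RefSeq start site, a motif found in 12.4% of windows. The last 20 bases of the Iyd window also occur in a GENCODE M21 transcript of Iyd, so that distance holds for the RefSeq start only. The last 20 bases of the other 4 windows occur in no M21 transcript of their gene. A stretch just after the RefSeq start occurs in an M21 transcript of the gene for Necab2, Amigo2, Nectin3 and Iyd, but not for Bok. The Bok window may therefore not adjoin the start of the transcript that holds most of the Bok counts. Necab2 had 13 CpG dinucleotides and no GC box, and Bok had 12 and 1. Neither of these held a TATA box. These matches describe the letters of the windows and not binding.

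**Figure D5:**
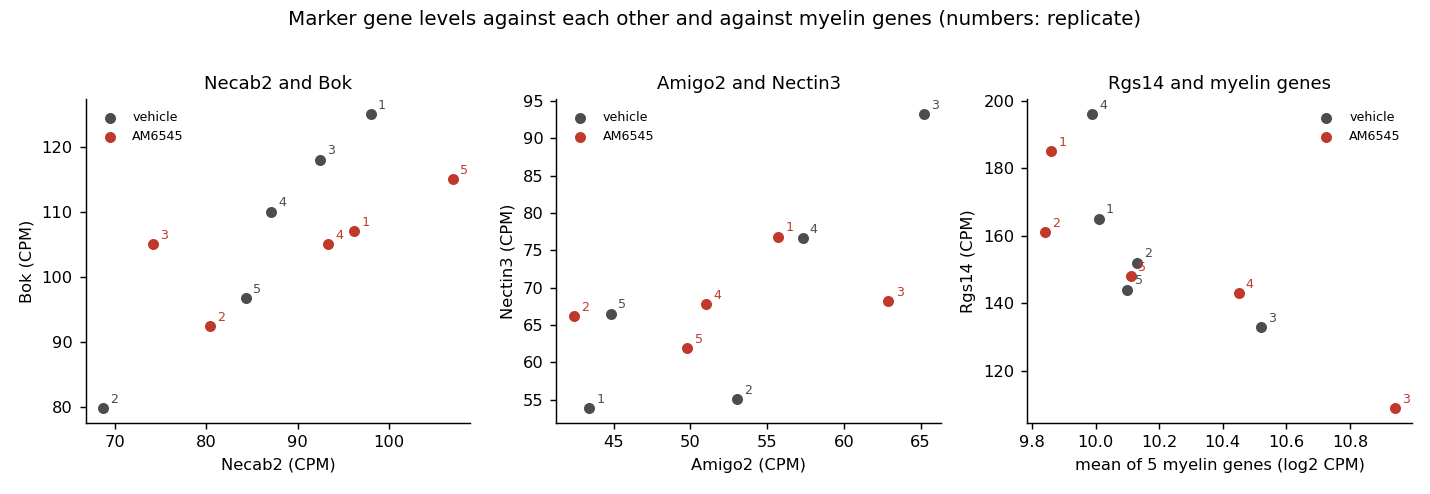
Levels in the 10 libraries for Necab2 against Bok and Amigo2 against Nectin3 (CPM on both axes), and for Rgs14 (CPM) against the mean of 5 myelin genes (log2 CPM); points are libraries with their replicate number, vehicle in grey and AM6545 in red, and the axes do not start at 0. Necab2 and Bok are both lowest in vehicle replicate 2, and AM6545 replicate 3 is the lowest in Rgs14 and the highest in myelin genes.

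Markers of other cells were set beside the members. Over 16 measures of the libraries (13 marker lists, the total count and contrasts by transcript length and GC content) and 9 members, 0 of 144 relations passed an adjusted p of 0.05 with either coefficient. Before adjustment 19 had a Pearson and 11 a Spearman permutation p under 0.05. The nearest to the threshold was Rgs14 with the mean of 5 myelin genes of oligodendrocytes, at r = -0.882 (permutation p = 0.00038, adjusted 0.0547) and Spearman rho = -0.867 (permutation p = 0.00238, adjusted 0.343). Rgs14 was 109 CPM in AM6545 replicate 3, where the myelin mean was 10.94 log2 CPM, and 133 CPM in vehicle replicate 3, where it was 10.52. Without these 2 libraries r was -0.647 (exact permutation p = 0.0841). All 5 myelin genes were negative against Rgs14, from -0.788 for Mbp to -0.865 for Mog. Only 0.132% of tested genes had an r this low with the myelin mean, and the mean of 4 excitatory neuron genes had r = 0.0151 with Rgs14 (permutation p = 0.967). The library total had r = 0.698 with Rgs14 (permutation p = 0.0223, adjusted 0.342) and Spearman rho = 0.552 (permutation p = 0.105, adjusted 0.541). That r was 0.361 without vehicle replicate 4 and AM6545 replicate 1. AM6545 replicate 3 also had the lowest total, 18106112 counts, and the highest blood gene mean, 7.40 log2 CPM. The myelin genes summed to 13849 to 20270 CPM under vehicle and 11663 to 27446 CPM under AM6545. The part of the myelin genes, the library total and the blood genes in the level of Rgs14 was not tested.

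Necab2 was lower where the mean of dentate granule cell genes was higher (r = -0.802, permutation p = 0.00505, adjusted 0.324). Spearman rho was -0.782 (permutation p = 0.0105, adjusted 0.391). Of the 8 granule cell genes, 6 were negative against Necab2, from -0.336 for C1ql2 to -0.849 for Prox1. Tdo2, at 0.12, and Plk5, at 0.346, were positive. Without vehicle replicate 1 and AM6545 replicate 5 the r was -0.641 (exact permutation p = 0.0897). Amigo2 was lower where interneuron genes were higher (r = -0.778, permutation p = 0.00899, adjusted 0.324; Spearman rho = -0.709, permutation p = 0.0271, adjusted 0.391), and r was -0.550 without the 2 farthest libraries. All 6 interneuron genes were negative against Amigo2, from -0.0916 for Slc32a1 to -0.638 for Gad2, and 4.3% of tested genes had an r with the list mean as low as that of Amigo2. Amigo2 also had r = 0.702 with the astrocyte mean (permutation p = 0.0186, adjusted 0.342) and 0.628 with the myelin mean (permutation p = 0.0488, adjusted 0.37). Spearman rho was 0.709 for astrocytes (permutation p = 0.0271, adjusted 0.391) and 0.552 for myelin (permutation p = 0.105, adjusted 0.541). Without vehicle replicate 1 and AM6545 replicate 3 the astrocyte r was 0.54 (exact permutation p = 0.171). The myelin r dropped to 0.121 (exact permutation p = 0.794) without vehicle replicate 3 and AM6545 replicate 3, so it rests on those libraries. With the mean of the further genes of their own field, the CA2 markers ran from r = -0.573 for Rgs14 to 0.692 for Amigo2. The CA3 markers ran from -0.0324 for Cpne4 to 0.672 for Nectin3, with no adjusted p under 0.05. The mean of the further CA2 genes includes Sostdc1, whose SD of log2 CPM was 1.2 against a list median of 0.25. Sostdc1 followed the choroid plexus genes at r = 0.968, so that mean does not measure CA2 alone. The part of Sostdc1 in these values was not tested. Map3k15 followed the choroid plexus genes at r = 0.752 (permutation p = 0.00800, adjusted 0.324; Spearman rho = 0.6, permutation p = 0.0734, adjusted 0.535), and at 0.395 without vehicle replicate 4 and AM6545 replicate 4, so it rests on those libraries.

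Pcp4, the shortest of the member transcripts, was lower in deeper libraries (r = -0.718, permutation p = 0.0211, adjusted 0.342; Spearman rho = -0.758, permutation p = 0.0151, adjusted 0.391), with r = -0.507 without the 2 farthest libraries. Its main transcript is 641 bases long, under the 10th percentile of 1194 bases among tested genes. The contrast of genes at or under that length with genes of at least 6291 bases, the 90th percentile, ran from -0.25 in vehicle replicate 2 to 0.53 log2 units in vehicle replicate 1. It correlated with Pcp4 at r = 0.655 (permutation p = 0.0342, adjusted 0.342; Spearman rho = 0.721, permutation p = 0.0235, adjusted 0.391) and at 0.857 (exact permutation p = 0.00813) without those 2 libraries. An r of 0.655 or more with the contrast was found in 13.4% of tested genes. Its part in the spread of Pcp4 was not tested.

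Of the further CA2 genes, Sostdc1, a secreted signalling antagonist, was named after its values were seen. It had 99.0, 52.9, 75.7, 6.31 and 45.6 CPM in vehicle and 31.4, 20, 47.9, 17.5 and 70.2 CPM in AM6545 replicates 1 to 5. Its correlation with the mean of 5 choroid plexus genes was r = 0.968 (permutation p = 1.0e-05, the smallest that 100000 permutations can give; Spearman rho = 0.988, permutation p = 1.0e-05) and r = 0.944 (exact permutation p = 7.4e-05) without vehicle replicate 4 and AM6545 replicate 4. Among the 9 members the r with the choroid plexus genes ran from -0.552 for Rgs14 to 0.752 for Map3k15.

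The genes most like each member were the 2 of highest Pearson r among the 14358 tested, a choice that yields high values for any gene. They were Cog4 (r = 0.94, Spearman rho = 0.89) and Ndrg3 (0.93, 0.81) for Rgs14, and Ndufc1 (0.96, 0.93) and Tlr1 (0.95, 0.89) for Pcp4. For Necab2 they were Csad (0.94, 0.89) and Npas1 (0.92, 0.90), and for Bok Pusl1 (0.95, 0.92) and Shd (0.91, 0.88). Amigo2 was closest to Tmem161b (0.94, 0.93) and Extl2 (0.93, 0.92), and Map3k15 to Sowahc (0.95, 0.94) and Tbc1d9 (0.94, 0.99). Iyd was closest to Wnt10a (0.89, 0.93) and Igbp1 (0.87, 0.90), Cpne4 to Ufsp2 (0.95, 0.88) and Ndfip1 (0.94, 0.94), and Nectin3 to Npy2r (0.94, 0.98) and Ptgs2 (0.93, 0.89). No member was among the 2 genes most like another member.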

How the data were processed

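RNA was extracted from hippocampal synaptoneurosomes and libraries came from a SMARTer low-input kit, according to the labels. The authors deposited estimated counts per gene and per transcript for 10 libraries, and the submitters' processing notes name Salmon 1.5.2 and mm10 without a role. The unit was read from the values, of which 38.6% in the gene table and 41.6% in the transcript table were not whole. Annotation release and use of strand are not given in the sources used here. Names, lengths and overlaps came from GENCODE M21. Only 11 gene identifiers carried the version of that release, so counting probably used another one, and lengths, per-kilobase levels and overlaps may differ under it. Symbols were matched by identifier for 22155 of 22255 genes, and 101527 of 102392 transcripts were matched.

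Counts were rounded and tested with edgeR 4.0.16 (R 4.3.3) on the whole tables: TMM, filterByExpr (minimum count 10, minimum total 15), group alone, robust quasi-likelihood, Benjamini-Hochberg adjustment over all features. All tests were two-sided. Correlations used log2 CPM (prior count 2) and 100000 permutations (all 40320 orderings, an exact test, where 2 libraries were left out). Python 3.11.15, numpy 2.4.6 and scipy 1.17.1 were used. Alternatives were other size factors, filters and tests (DESeq2 1.42.0, limma 3.58.1), the replicate number as a block, and leaving out each library. The members, lists and tests were chosen with earlier results of these data known. Of each further list, the 3 genes of smallest p were named, and transcripts with at least 10% of a gene's counts. One gene that this rule names is not reported here.

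On simulated counts over 14358 genes, this comparison called 6% of the 1.25-fold, 48.7% of the 1.5-fold and 86.0% of the 2-fold changes put in. Many genes of all levels were changed at once in each run, so a lone change or a scarce gene may be called less often. Each gene was drawn independently, without shifts that many genes of a library share, so the shares called may differ in the real libraries. The floor of 3 counts was at most 0.166 CPM, for counting error only. The estimates also carry an error from sharing reads between transcripts, which is not in the standard errors.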

Additional observations from a re-analysis of the deposited data

Results flagged for a closer look

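In all, 48 groups of 5 libraries were examined (the 9 members and 15 marker list means in each treatment group). The highest or lowest library lay far from the others in 6, where chance gives about 2.4 if values are normally spread. The CA2 and CA3 means share genes with the members, so the 48 groups are not independent and the 6 are not shown to be an excess. Map3k15 was 1.93 CPM in AM6545 replicate 5 against 0.999 to 1.27 CPM in the other 4, on 39 counts or fewer. The mean of the 5 CA2 markers was 5.55 log2 CPM in the same library, while its group otherwise spanned 5.18 to 5.27, and Pcp4, Necab2 and Map3k15 were each highest there, whereas Rgs14 and Amigo2 were not. In vehicle replicate 3 the myelin gene mean reached 10.52 log2 CPM while its group otherwise spanned 9.99 to 10.13, and Rgs14 had its lowest vehicle value there. The choroid plexus mean was 2.50 log2 CPM in vehicle replicate 4 against 7.10 to 7.62, and Map3k15 was lowest there, at 0.819 CPM. The excitatory neuron mean was 9.15 log2 CPM in AM6545 replicate 4 against 9.0 to 9.04. The blood gene mean was 7.40 log2 CPM in AM6545 replicate 3 against 5.36 to 5.85, and Rgs14 and Cpne4 were lowest there.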

How the results depend on the processing

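Of 153 member fold changes recomputed under 7 other settings or without 1 library, 0 passed the threshold and 30 changed sign. Over all genes 0 to 1 passed when 1 library was left out (1 without vehicle replicate 3 and 1 without AM6545 replicate 3) and 0 under the 7 settings. At an unadjusted p under 0.05 the 270 genes became 710 with limma-voom and 433 with no filter. Signs turned with limma-voom for Rgs14 (0.0017), Pcp4 (-0.0049), Bok (0.04) and Iyd (-0.03), and with the replicate block for Map3k15 (0.01) and Nectin3 (0.01); the cause was not tested. With 1 library left out the log2 fold changes spanned -0.18 to 0.01 for Rgs14, 0.02 to 0.27 for Pcp4, -0.08 to 0.08 for Amigo2, -0.0017 to 0.13 for Necab2, -0.19 to 0.10 for Map3k15, -0.10 to 0.05 for Bok, -0.08 to 0.18 for Iyd, -0.23 to -0.07 for Cpne4 and -0.10 to 0.11 for Nectin3. The replicate block called 0 genes, as did the fit without it; 277 against 270 had an unadjusted p under 0.05. Same-numbered libraries correlated at -0.14, -0.186, 0.232, 0.393 and 0.0646 in their deviations from the group means. Of the 5 vehicle libraries, 3 correlated best with their own number. These values have no reference to judge them by, and whether the numbers pair the libraries was not tested. Pair correlations and member transcripts past the threshold stayed at 0 under every alternative run, and r for Necab2 with Bok ran from 0.63 to 0.88 without 1 library. Map3k15, on 20 to 39 counts, is the member that depth limits most.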
